A study of Rattus norvegicus with 14 samples.

Results

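The keratin-associated protein genes (Krtap) of hairless rat skin were followed on 14 one-colour expression arrays. All probes whose transcript accession matched a rat RefSeq symbol beginning with Krtap were taken, bright or dim, which gave 24 of 30367 probes. They stood for 15 of 15148 genes with a symbol and a probe, and for 15 of the 69 Krtap symbols in the RefSeq gene table, 2 of them pseudogenes. The other 54 symbols matched no probe, and 7 of the 15 genes had more than 1 probe.

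The study exposed male CD hairless rats to 94 GHz waves for 3 hours a day, 3 days a week, over 5.5 months, and compared their skin with that of sham animals. The exposed group held 6 animals and the sham group 8, each with 1 array of total RNA from a skin biopsy. Both groups were of the same strain, sex and housing, and differed by label only in exposure. The animals' age and the site of the biopsy are not given in the sources used here, and the labels describe no coat or hair-cycle stage.

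Keratin-associated proteins are small proteins of the hair shaft that embed the hair keratin filaments and are cross-linked to them through cysteines. They are made late in the differentiation of hair matrix cells into cortex and cuticle, so their mRNA is a marker of growing hair follicles. By composition they are divided into high-sulfur, ultra-high-sulfur and high glycine-tyrosine families, and their genes lie in clusters. In human hair, the KRTAP10 and KRTAP5 families are known from the cuticle, the outer scale layer of the shaft.

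By Krtap number, 19 probes of 11 genes belonged to high-sulfur families, 1 probe to the ultra-high-sulfur gene Krtap5-8, and 2 probes to the high glycine-tyrosine genes Krtap7-1 and Krtap19-5. The 2 probes of Krtap31-1 were left without a class. Krtap16-5 was counted as high sulfur by its number, but in the gene table it lies beside Krtap19 and Krtap20 genes, which are high glycine-tyrosine genes, so it is also given apart. By chromosome in the same table the genes fell into 4 clusters. The Krtap10 cluster held 11 probes of 6 genes (Krtap10-2, Krtap10-9, Krtap10-10l1, Krtap10-10l2, Krtap10l1 and Krtap10l2). The Krtap7-to-Krtap19 cluster held 9 probes of 6 genes (Krtap7-1, Krtap13-2, Krtap14, Krtap15-1, Krtap16-5 and Krtap19-5). Krtap1-5 and Krtap31-1, with 3 probes, lie among the type I keratin genes, and Krtap5-8 lies in a cluster of Krtap5 genes.

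A promoter sequence of RefSeq (build GRCr8) was found for all 15 genes, and the 250 bases before each listed start were searched for 3 kinds of word. The word TATAA, on the strand of the gene, stood in 12 of the 15 and in 16.7% of 33469 rat promoters. LEF1 words (CTTTG followed by AA, TT, AT or TA, either strand) stood in 6 of 15 and in 14.9% of all promoters. LEF1 is the factor through which Wnt signals act in the hair matrix. HOXC13 words, named for a homeodomain factor of the hair shaft (TTAATNAA, TTAATNAG, TTAATNGA, TTAATNGG, TTTATNAA, TTTATNAG, TTTATNGA or TTTATNGG, either strand), stood in 5 of 15 and in 17.8% of all promoters. The words overlap in part, since TATAA can lie inside the HOXC13 word TTTATNAA. In the Krtap7-to-Krtap19 cluster 5 of 6 genes held a LEF1 word and 4 of 6 a HOXC13 word. In the Krtap10 cluster the count was 0 of 6 for both, and 3 of 6 held TATAA. For 5 genes the listed start is a start codon, so there the searched stretch may not be the promoter itself. These are Krtap5-8, 3 of the 6 Krtap10 genes (Krtap10-2, Krtap10-9 and Krtap10-10l2) and, in the Krtap7-to-Krtap19 cluster, only Krtap19-5, the 1 gene there without a LEF1 word. The counts of the clusters are thus not from like stretches. The windows shown are 120 bases that end shortly after TATAA, shown for all 6 genes of the Krtap7-to-Krtap19 cluster, the 3 Krtap10 genes with TATAA, Krtap5-8 and Krtap1-5, because the clusters also differed in expression. Capitals mark the matched words. The names chr1.0, chr10.0, chr11.0 and chr20.0 stand for chromosomes 1, 10, 11 and 20.
Krtap10-2 (chr20.0:10887991-10888110, plus strand): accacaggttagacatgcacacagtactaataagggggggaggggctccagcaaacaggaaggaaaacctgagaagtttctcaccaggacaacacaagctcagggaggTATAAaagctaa
Krtap10-9 (chr20.0:10939002-10939121, plus strand): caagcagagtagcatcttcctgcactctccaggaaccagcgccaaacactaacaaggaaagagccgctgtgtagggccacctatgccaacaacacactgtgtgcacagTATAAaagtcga
Krtap10-10l1 (chr20.0:10825226-10825345, minus strand): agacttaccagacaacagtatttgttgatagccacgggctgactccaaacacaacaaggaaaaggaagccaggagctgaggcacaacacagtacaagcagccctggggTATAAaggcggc
Krtap5-8 (chr1.0:206875410-206875529, plus strand): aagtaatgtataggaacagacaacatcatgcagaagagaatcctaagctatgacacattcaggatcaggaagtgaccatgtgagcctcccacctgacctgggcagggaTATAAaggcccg
Krtap1-5 (chr10.0:85039872-85039991, minus strand): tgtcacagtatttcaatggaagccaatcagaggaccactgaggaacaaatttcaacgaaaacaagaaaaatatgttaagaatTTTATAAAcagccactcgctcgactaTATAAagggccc
Krtap7-1 (chr11.0:42227250-42227369, minus strand): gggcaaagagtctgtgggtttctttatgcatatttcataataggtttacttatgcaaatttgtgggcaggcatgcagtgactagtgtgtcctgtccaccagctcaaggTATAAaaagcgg
Krtap13-2 (chr11.0:41575761-41575880, plus strand): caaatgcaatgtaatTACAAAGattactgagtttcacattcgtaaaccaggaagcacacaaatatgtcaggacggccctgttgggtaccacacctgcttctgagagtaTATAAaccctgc
Krtap14 (chr11.0:41613730-41613849, minus strand): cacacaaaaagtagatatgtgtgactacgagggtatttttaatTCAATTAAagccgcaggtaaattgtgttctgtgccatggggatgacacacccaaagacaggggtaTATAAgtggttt
Krtap15-1 (chr11.0:41616409-41616528, plus strand): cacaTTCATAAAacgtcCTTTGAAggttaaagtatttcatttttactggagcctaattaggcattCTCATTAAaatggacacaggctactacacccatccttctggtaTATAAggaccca
Krtap16-5 (chr11.0:41736037-41736156, minus strand): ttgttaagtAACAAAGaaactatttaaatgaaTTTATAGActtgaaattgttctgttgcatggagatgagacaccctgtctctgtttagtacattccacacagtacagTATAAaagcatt
Krtap19-5 (chr11.0:41678108-41678227, minus strand): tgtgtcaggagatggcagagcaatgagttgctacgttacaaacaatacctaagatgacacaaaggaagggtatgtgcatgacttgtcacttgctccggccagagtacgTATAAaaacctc
In these windows, Krtap15-1 carries a LEF1 word and HOXC13 words upstream of TATAA, while Krtap10-2, Krtap7-1 and Krtap19-5 carry TATAA only. The LEF1 words counted for Krtap7-1, Krtap14 and Krtap1-5 and the HOXC13 word counted for Krtap13-2 lie outside their windows. A match is a description of letters and not of a bound site.

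Of the 24 Krtap probes, 24 were kept for testing, which required a signal well above background on at least 6 arrays. On all 14 arrays, 19 of 24 (79.2%) were well above background, against 60.9% of all probes. The exceptions were probes of Krtap10-10l2, Krtap10-9, Krtap31-1 and both probes of Krtap13-2, each dim on 1 or 2 arrays. No Krtap spot was saturated. The skin of this hairless strain thus gave signal for every Krtap gene that was matched to a probe. Hair shaft keratins gave signal too, with 11 of 12 on the array kept, and so did 8 of 8 epidermal keratinocyte markers. Values below are log2 signals relative to the 75th percentile of the same array, so 0 is the level of that percentile. Levels of different probes are not compared, since probes differ in brightness. The arrays' 75th percentile signals ran from 804.5 (sham animal 6) to 1967 intensity units.

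Krtap genes varied widely from animal to animal. The median SD of a Krtap probe over the 14 animals was 1.43 log2 units, against 0.24 for all 21012 probes tested. Of the 24 probes, 22 were in the top 5% of SD and 15 in the top 1%. The median range from the lowest to the highest animal was 4.68 log2 units, against 0.88 over all probes tested. The widest range belonged to a probe of Krtap31-1 (A_64_P059302, 10.95), which was not well above background in exposed animal 1. The second Krtap31-1 probe (A_64_P124822) ranged over 5.74. Krtap14 spanned 8.13 units, a 280-fold range, and Krtap15-1 spanned 8.09. The narrowest range was that of the third Krtap10-9 probe (A_64_P116199, 1.30). The biopsies are bulk tissue, so fewer hair-forming cells and less RNA per cell cannot be told apart.

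**Figure D1:**
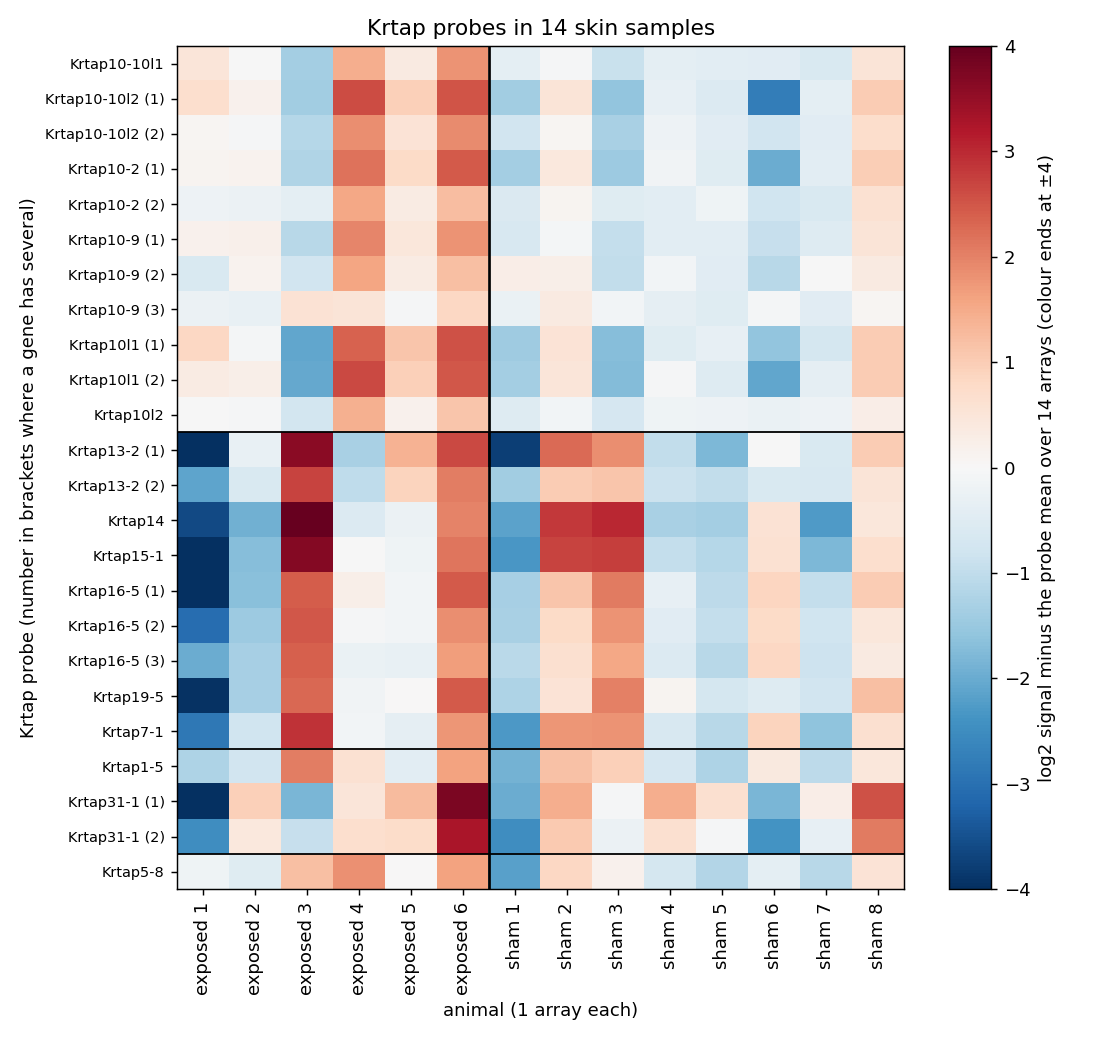
Heat map of the 24 Krtap probes (vertical axis, grouped by cluster with black lines) in the 14 animals (horizontal axis, exposed left of the line, sham right). Colour is the log2 signal minus the probe's mean over the 14 arrays. The Krtap10 cluster at the top is highest in exposed animals 4 and 6, and the Krtap7-to-Krtap19 cluster below it is highest in exposed animal 3.

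The clusters varied in different animals. As a mean of centred log2 values over its 11 probes, the Krtap10 cluster was highest in exposed animals 4 (1.83) and 6 (1.80) and lowest in sham animals 6 (-1.17) and 3 (-1.08) and exposed animal 3 (-1.05). The Krtap7-to-Krtap19 cluster, over its 9 probes, was highest in exposed animals 3 (3.00) and 6 (2.12) and sham animals 3 (2.00) and 2 (1.52), and lowest in exposed animal 1 (-3.41) and sham animal 1 (-1.88). Exposed animal 3 was thus at the top for one cluster and near the bottom for the other, and exposed animal 6 was high for both. Across the 14 arrays, pairs of probes of different genes had a median Pearson r of 0.92 within the Krtap10 cluster (median Spearman rho 0.92, 49 pairs) and 0.91 within the Krtap7-to-Krtap19 cluster (rho 0.89, 32 pairs). Between the clusters the median r was 0.0014 (rho -0.04, 99 pairs). The points of all these correlations share arrays and scaling, and neighbouring Krtap10 copies are alike in sequence, so signal from a neighbour on a probe was not tested.

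Probes of 1 gene mostly ran together. Pairs of probes for Krtap10-10l2, Krtap10-2, Krtap10l1, Krtap13-2, Krtap16-5 and Krtap31-1 had r from 0.88 to 0.98 over the 14 arrays. The third Krtap10-9 probe was the exception, with r of 0.52 and 0.46 to the other probes of that gene, while those had r of 0.89 with each other.

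The hair keratins, which form the filaments, followed 1 cluster or the other in most but not all cases. Krt40 and Krt82 are known as keratins of the hair cuticle, and Krt34 and Krt81 as keratins of the cortex. The other hair keratins were not sorted by layer here, so cuticle and cortex keratins were not compared as groups. The median r of Krtap10 probes was 0.94 with Krt40 and 0.86 with Krt82, but 0.02 with Krt34 and -0.02 with Krt81. The third Krtap10-9 probe (A_64_P116199) went the other way, with r of 0.52 to Krt40 and 0.46 to Krt82 but 0.72 to Krt34 and 0.73 to Krt81. For probes of the Krtap7-to-Krtap19 cluster it was 0.94 with Krt34, 0.92 with Krt81 and 0.92 with Krt85, a keratin made early in the shaft, but 0.08 with Krt40 and 0.10 with Krt82. Krt31, Krt33a, Krt33b, Krt36 and Krt39 had medians from 0.77 to 0.94 with this cluster and from -0.06 to 0.22 with the Krtap10 cluster. Krt35 did not separate the clusters, with medians of 0.55 and 0.43. When the 2 animals farthest from each Krtap probe's median were left out, the Krtap10 medians were 0.90 with Krt40, 0.81 with Krt82 and -0.25 with Krt34. For the Krtap7-to-Krtap19 cluster they were then 0.91 with Krt34, but 0.32 with Krt40 and 0.39 with Krt82, so the values near 0 rested in part on those animals. Krt40 was well above background on 12 arrays and Krt82 on 11, with exposed animal 3 lowest for both. Krt39 was well above background on only 6 arrays, so many of its values lie near background. Krtap5-8 ran with both sides, with r of 0.59 to Krt40 and 0.72 to Krt34. Krtap1-5 and Krtap31-1, which lie in 1 locus, had r of 0.34 and 0.45 with each other's probes.

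**Figure D2:**
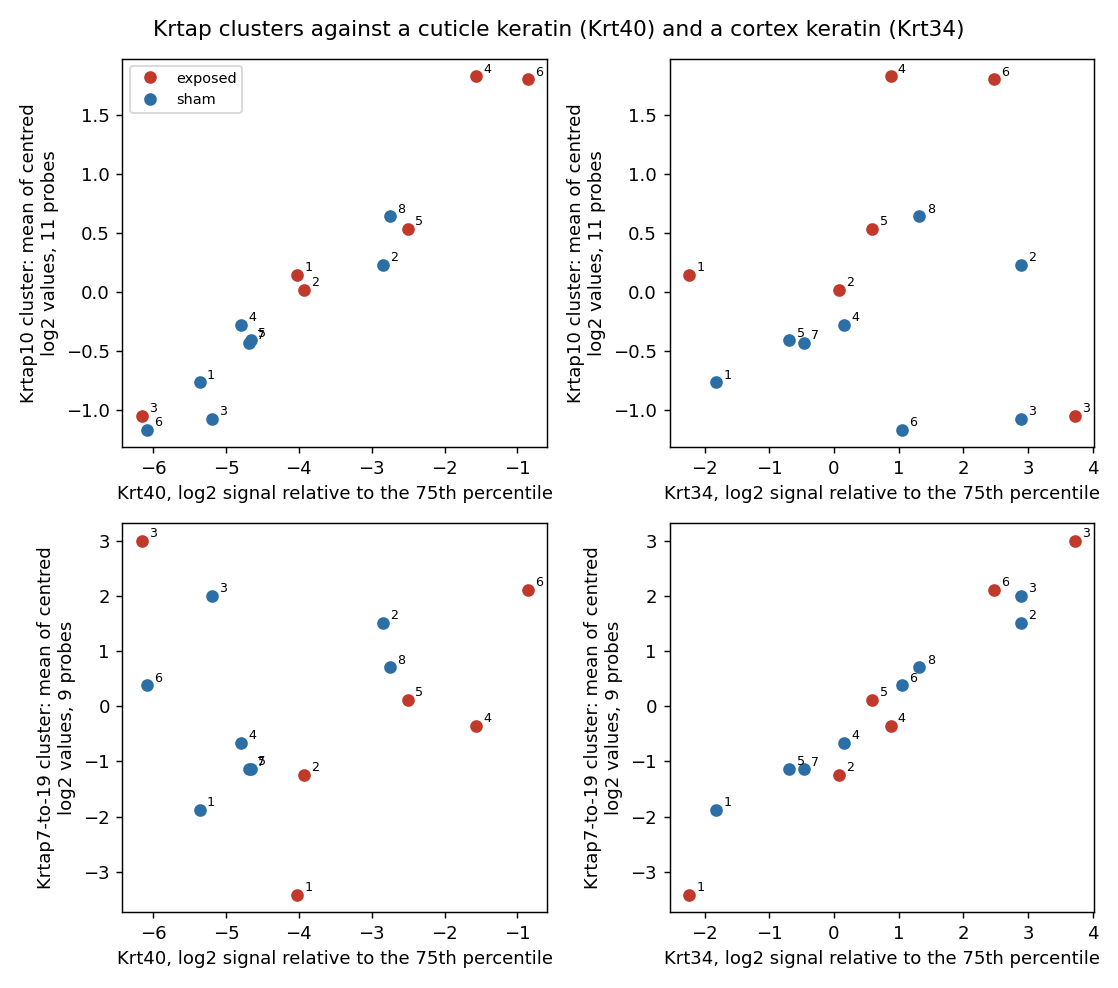
Mean centred log2 values of the Krtap10 cluster (upper panels, 11 probes) and the Krtap7-to-Krtap19 cluster (lower panels, 9 probes) against the log2 signal of Krt40 (left) and Krt34 (right), 1 point per animal, numbered within the exposed (red) and sham (blue) groups. The Krtap10 cluster lies along a line with Krt40 and the other cluster with Krt34, while the remaining panels show no line.

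Exposed and sham skin were then compared, the question of the study design. No Krtap probe passed the test of exposed against sham skin: 0 of 24 at an adjusted p under 0.05 (limma, Benjamini-Hochberg over 21012 probes; percent called 0%), with a smallest adjusted p of 0.999754. At an unadjusted p under 0.05 there were 5 of 24, against 3.38% of all probes, and all 5 had the higher mean in exposed skin, against 1.05% of all probes. The mean was higher in exposed skin in 19 of 24, against 43.5%. The median difference over the 24 probes was 0.55 log2 units, against -0.018 over all probes. Groups overlapped for every Krtap probe, with 0 of 24 separated against 0.0286% of all probes. The 24 probes stand for 15 genes and many ran together over the animals, so these counts are not of independent observations. The animals are the replicates, and rats were housed in pairs that the labels do not identify, so the p-values take them as independent. The 95% intervals of the Krtap probes had a median width of 2.83 log2 units, against 0.55 over all probes.

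Krtap10 genes had the higher mean in exposed skin in 11 of 11 probes, with a median difference of 0.93 and a range of 0.38 to 1.60. Krtap10-10l2 (NCBI gene 690415, probe A_64_P070073) read -4.47, -2.26 and -0.47 as the lowest, median and highest of 6 exposed animals, and -5.85, -3.55 and -2.06 of 8 sham animals. Exposed animals 4 and 6 lay above all sham animals and exposed animal 3 lay below the sham median. The difference was 1.60 (95% interval 0.19 to 3.02), with an unadjusted p of 0.029 and an adjusted p of 0.999754 in limma.

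Krtap10-2 (gene 690460, probe A_64_P051527) read -3.00, -1.36 and 0.63 in exposed and -3.81, -2.26 and -0.83 in sham animals, lowest, median and highest. Again 2 exposed animals exceeded all sham animals, and 5 of 6 exceeded the sham median. Its means were -1.07 ± 1.38 (SD, n = 6) and -2.36 ± 1.00 (SD, n = 8), a difference of 1.30. The second probe of this gene (A_64_P051528) had a difference of 0.68.

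Krtap10-9 (gene 690478) had differences of 1.01, 0.55 and 0.38 in its 3 probes. The first of these (A_64_P021414) had the smallest unadjusted p of any Krtap probe, 0.027, and an adjusted p of 0.999754 in limma. Krtap10l1 (gene 689927, probe A_64_P159296) ran from -3.79 to 0.88 in exposed and from -3.85 to -0.73 in sham animals, with medians of -1.13 and -2.19. Both groups thus reached the same low values, and only exposed animals 4 and 6 lay above the highest sham animal. Krtap10-10l1 and Krtap10l2, with 1 probe each, differed by 0.80 and 0.55.

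Krtap5-8 (gene 685544), the ultra-high-sulfur member, read 2.56, 3.65 and 4.86 in exposed animals and 0.86, 2.50 and 3.87 in sham animals, lowest, median and highest. All 6 exposed animals exceeded the sham median and 3 exceeded all sham animals. The means were 3.71 ± 0.99 (SD, n = 6) and 2.54 ± 1.00 (SD, n = 8), and the difference of 1.17 (95% interval 0.12 to 2.22) had an unadjusted p of 0.032 and an adjusted p of 0.999754 in limma.

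**Figure D3:**
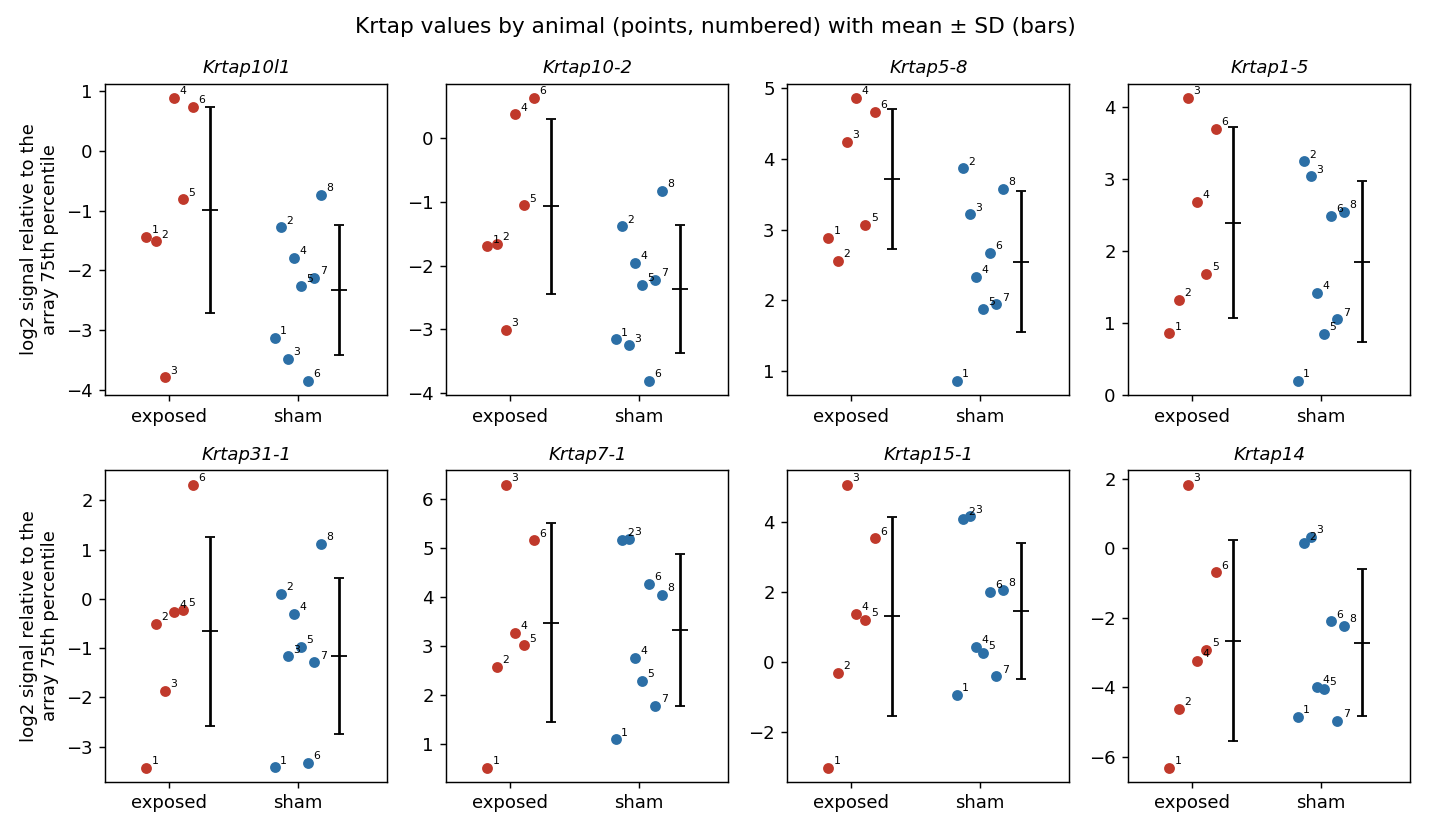
Log2 signal relative to the array's 75th percentile for 8 Krtap genes (brightest probe of each), with each animal as a numbered point, exposed in red and sham in blue, and black bars for mean ± SD. Exposed animals 4 and 6 lie above all sham animals for Krtap10l1 and Krtap10-2, while exposed animals 1 and 3 span the whole range of Krtap7-1, Krtap15-1 and Krtap14.

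In the Krtap7-to-Krtap19 cluster 5 of 9 probes had the higher mean in exposed skin, and the median difference was 0.05. Krtap7-1 (gene 363741), a high glycine-tyrosine gene, read 0.52, 3.14 and 6.29 in exposed animals and 1.10, 3.40 and 5.18 in sham animals, lowest, median and highest. Exposed animals held both the lowest and the highest value, and the difference was 0.15 (95% interval -1.72 to 2.01). Krtap19-5, of the same class, differed by -0.19, with 85.0-fold between its lowest and highest animal.

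Krtap15-1 (gene 288297) ran from -3.02 to 5.06 in exposed and from -0.94 to 4.15 in sham animals, with medians of 1.28 and 1.21. Its groups shared their centre and differed by -0.15. Krtap14 (gene 501768) ran from -6.30 to 1.83 and from -4.96 to 0.32, with medians of -3.07 and -3.10. The lowest animal for both genes was exposed animal 1 among all 14, and the highest was exposed animal 3. Krtap13-2 differed by 0.59 and 0.55 in its 2 probes, both dim in exposed animal 1. The 3 probes of Krtap16-5 differed by -0.41, -0.08 and 0.05, so they disagreed in sign within intervals that all include 0.

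Krtap1-5 (gene 497995), a high-sulfur gene at the type I keratin locus, had medians of 2.18 in exposed and 1.95 in sham animals and a difference of 0.54 (95% interval -0.74 to 1.83). Its highest values were in exposed animals 3 (4.13) and 6 (3.70). The probes of Krtap31-1 disagreed in sign, with differences of -0.74 and 0.50. They read -8.13 and -3.42 in exposed animal 1, where the first was dim. By class, the median difference was 0.55 over 19 high-sulfur probes, 0.64 over the 16 without Krtap16-5, and -0.021 over the 2 high glycine-tyrosine probes. High-sulfur probes outside the Krtap10 cluster, 8 in number, had a median of 0.05. These include the Krtap16-5 probes, at -0.41, -0.08 and 0.05. The rest were 0.59 and 0.55 for Krtap13-2, 0.54 for Krtap1-5, 0.06 for Krtap14 and -0.15 for Krtap15-1, so this median depends on where Krtap16-5 is placed. The difference between clusters or classes was not tested.

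**Figure D4:**
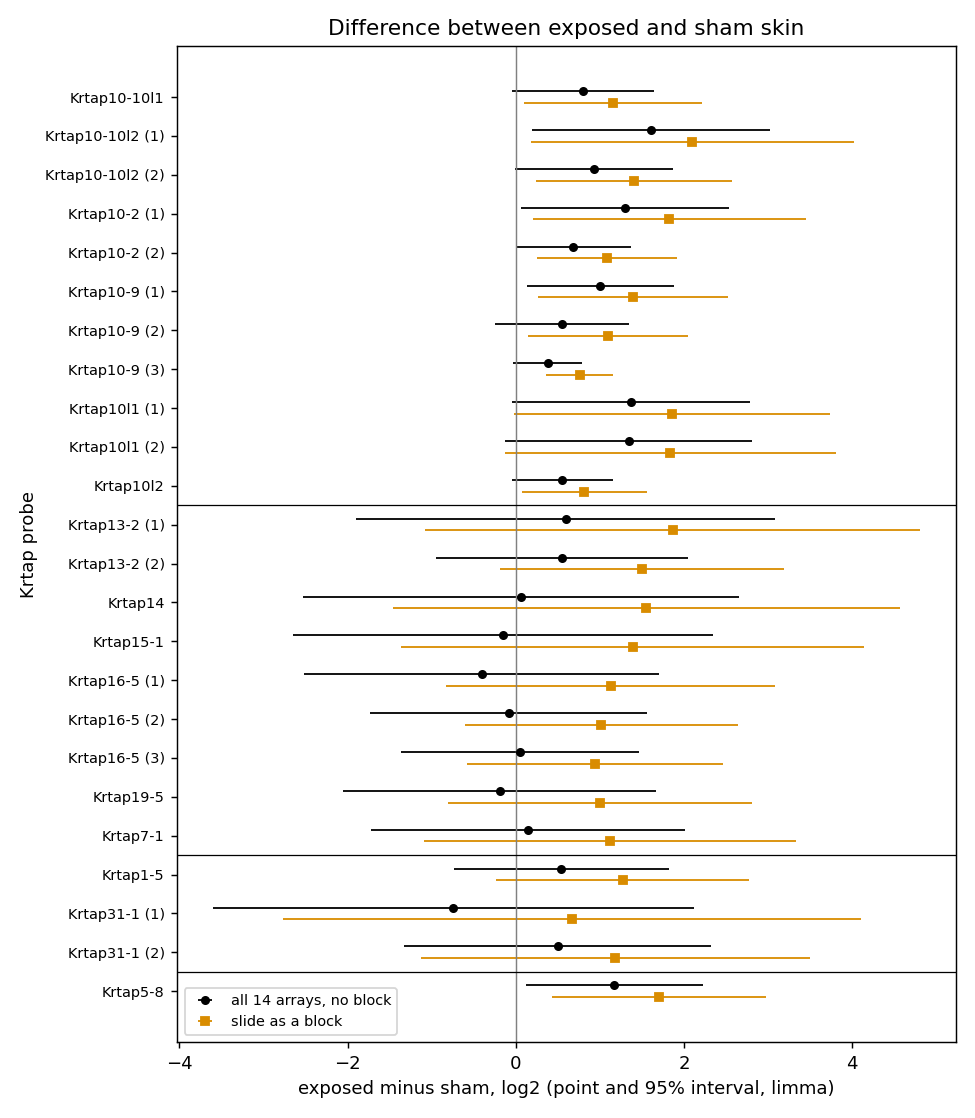
Exposed minus sham difference (log2, horizontal axis) of each Krtap probe (vertical axis, grouped by cluster) with its 95% interval, from all 14 arrays without a block (black circles) and with slide as a block (orange squares). The 11 Krtap10 probes lie right of 0 in both, and the Krtap7-to-Krtap19 probes, which straddle 0 without the block, lie right of 0 with it. With the block, the difference comes from slides 3 and 4 only, which hold both groups.

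Slide was read from the first part of the code in brackets in the sample titles, which do not say what that part is. Slide and group were not balanced. Slide 1 held 2 sham arrays, slide 2 held 2 exposed arrays, slide 3 held 3 of each and slide 4 held 1 exposed and 3 sham arrays. With slide as a block, 24 of 24 Krtap probes were higher in exposed skin (40.4% of all probes), the median difference was 1.23, and 10 of 24 had an unadjusted p under 0.05 (3.12% of all probes). None was called (limma, 0 of 24 at adjusted p under 0.05, percent called 0%). The smallest unadjusted p was that of the third Krtap10-9 probe, with a difference of 0.76 and a p of 0.0014, and an adjusted p of 0.999675 in limma. The difference in the block fit comes from slides 3 and 4, the only ones with both groups. The values within those slides, given next, are thus not separate from it. Within slide 3, 23 of 24 were higher (44% of all probes), with a median of 0.92, 2 at an unadjusted p under 0.05 (2.69% of all) and 0 called. Within slide 4, the exposed side is 1 array, exposed animal 6, which had the highest mean over all Krtap probes (2.05). The p-values there rest on the spread of 3 sham arrays, like which the exposed array is assumed to vary. They also rest on a variance that limma draws from all probes. There 24 of 24 were higher (44.5% of all probes), with a median of 2.13, 10 at an unadjusted p under 0.05 (1.54% of all) and 0 called. Slides 1 and 2 hold 1 group each, and for them slide and exposure cannot be told apart. Between them, the exposed mean was the lower in 9 of 9 Krtap7-to-Krtap19 probes and 3 of 3 probes of Krtap1-5 and Krtap31-1, but in 2 of 11 Krtap10 probes. The mean of Krtap7-1 was 3.13 on slide 1 (sham) and 1.55 on slide 2 (exposed). On slide 3 it was 4.19 in exposed and 3.41 in sham animals, and on slide 4 it was 5.15 and 3.36. For this gene the slides with 1 group thus ran opposite to those with both. Krtap5-8 did not show this, with means of 2.36 on slide 1 (sham) and 2.72 on slide 2 (exposed), exposed and sham means of 4.06 and 2.48 on slide 3, and of 4.66 and 2.73 on slide 4.

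The number of unadjusted calls moved with single animals. Without exposed animal 4 or exposed animal 6, 0 of 24 Krtap probes had an unadjusted p under 0.05, in place of 5, with 2.53% and 2.57% of all probes. There was 1 without sham animal 1 (3.42% of all probes) and 3 without exposed animal 5 (3.98%). There were 2 without sham animal 3, 5, 6 or 7, with 3.26%, 2.77%, 8.4% and 2.48% of all probes. There were 8 without exposed animal 2 (4.08%), 9 without exposed animal 3 (5.18%) and 10 without sham animal 8 (3.34%). The median difference was 0.27 without exposed animal 6. The Krtap10 cluster kept 11 of 11 probes higher in exposed skin in each of these 14 fits, while the Krtap7-to-Krtap19 cluster went from 9 of 9 higher without exposed animal 1 to 1 of 9 without exposed animal 3. The probes of a cluster mostly ran together and the fits share most of their arrays, so these counts are not separate results.

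Other genes of the hair follicle were read from lists, by the brightest kept probe. These lists were chosen with earlier results of these data known. Of the hair shaft keratins, 11 of 11 kept had the higher mean in exposed skin, against 43.5% of all probes. None passed the test, and the median difference was 0.56. Genes of a list were read on the same animals, so counts over a list are not of independent observations. Krt40 and Krt35 differed by 1.38 and 1.33, and Krt31 and Krt34 by 0.17 and 0.25. The remaining kept ones, Krt33a, Krt33b, Krt36, Krt39, Krt81, Krt82 and Krt85, lay between 0.38 and 0.73. Krt84 was dim, and Krt32, Krt83 and Krt86 matched no probe. Of the inner root sheath genes, 7 of 8 were higher and 0 passed, with a median of 0.76. This sheath surrounds and moulds the growing shaft.

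Of 24 hair shaft regulators and partner proteins, 14 were higher, against 43.5% of all probes, and 0 passed the test, with a median of 0.10. The 4 with an unadjusted p under 0.05, against 3.38% of all probes, were Vsig8 and S100a3, both hair shaft proteins (1.27 and 1.23), Msx2, a matrix homeobox gene (0.80), and the forkhead gene Foxq1, which had the lower mean in exposed skin (-0.23). Lef1 differed by 0.82, with an interval that includes 0. Foxn1, which drives hair keratin genes, differed by -0.14 and spanned 1.17 log2 units over the 14 animals. Hoxc13 matched no probe.

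Markers of other tissue were set beside the Krtap genes. The skeletal muscle list, with 12 genes kept of 14 on the array, had the widest spread. Its mean centred level ran from -1.84 to 4.83 in exposed and from -2.77 to 3.48 in sham animals. In this list 12 of 12 had the higher mean in exposed skin, against 43.5% of all probes. The median difference was 1.40, the largest of the lists, against 0.55 over the Krtap probes. Dim there were Myh2 and Myh4. The epidermal keratinocyte level ran only from -0.27 to 0.15 in exposed and from -0.48 to 0.40 in sham animals, with 1 of 8 higher. The sebaceous gland level ran from -0.14 to 0.19 and from -0.14 to 0.10, with 6 of 11 higher, and the adipocyte level from -0.47 to 0.57 and from -0.83 to 0.26, with 6 of 8 higher. Levels of dermal fibroblasts ran from -0.79 to 0.22 in exposed and from -0.24 to 0.33 in sham animals (1 of 7 higher), those of macrophages from -0.89 to 0.39 and from -0.28 to 0.40 (0 of 7), and those of melanocytes from -1.08 to 0.69 and from -0.35 to 0.54 (2 of 5). Exposed animal 3, highest for the Krtap7-to-Krtap19 cluster, was lowest for the last 3 of these lists. In none of the lists did a gene pass the test (limma, 0 at adjusted p under 0.05), and the part of these cell types in the Krtap values was not tested.

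Over the 14 arrays and 11247 genes with a symbol, the genes outside Krt and Krtap whose pattern was most like the mean centred value of all 24 Krtap probes were Abcg2 (r = 0.96), Gdf6 (0.95), Capn8 (0.94), Ly6g6d (0.93) and Bambi (0.93). Their Spearman rho values were 0.90, 0.94, 0.95, 0.93 and 0.86. Like the Krtap mean, which peaked at 2.05 in exposed animal 6 and was lowest at -1.68 in exposed animal 1, these were read over the same arrays and scaling. Abcg2 encodes a membrane transporter, Gdf6 a BMP-type ligand and Bambi a decoy receptor of that pathway.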

How the data were processed

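Skin RNA of 14 rats was measured, 1 array per animal, grouped by the treatment in the labels. The deposited scanner files hold background-subtracted spot intensity values, per the file headers the output of Agilent Feature Extraction 10.7.3.1. The authors' deposited value table holds log2 values of 15168 probes, each centred on its median. Its normalization method is not given in the sources used. Its columns correlated at 0.997 or more with quantile-normalized signals, and their medians ran from -0.0086 to 0.012, so direction and scale were read from the values. It holds 19 of the Krtap probes.

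Control and outlier spots were left out, log2 processed signal minus the array's 75th percentile was taken, and spots of a probe were averaged. Probes well above background on at least 6 arrays (21012 of 30367) were fitted with limma 3.58.1 in R 4.3.3 (group only, two-sided, Benjamini-Hochberg over all probes, threshold 0.05), after the script was tested on simulated data. From 64.6% to 73.6% of probes were well above background per array, and the number of arrays limits the precision. Probes were named through a RefSeq table of build GRCr8, which matched 17990 probes. The arrays' design refers to another build, so array coordinates are not given.

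The members and lists were chosen with earlier results of these data known. Named genes were, per class, the 5 detected on most arrays (ties by range), the 3 smallest p in each direction, genes with probes of opposite sign, hair keratins, Hoxc13, Foxn1, Lef1, Msx2 and the 5 most alike genes. The remaining Krtap genes and other list members were named after their values were seen. Clusters were set by chromosome, after the data were seen. Alternatives covered normalization, background correction, filters, slide, array weights and each array left out. A planned comparison of protein composition was not run here.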

Additional observations from a re-analysis of the deposited data

Results flagged for a closer look

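Of 162 sets of values tested for a single animal far from its group (each Krtap probe, each listed hair gene and each list level, in exposed and sham animals), 7 held one. Chance marks about 1 in 20 such sets. None was a Krtap probe. In sham animal 6, the array with the lowest 75th percentile signal, the values apart from the other sham animals were Foxn1 at -5.60, Gata3 at -0.74, Bmpr1a at 0.76, Hr at -2.14 and Pkp3 at 0.63. In exposed animal 3, they were Gata3 at -0.061 and the mean centred level of the dermal fibroblast list at -0.79. All are log2 values.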

How the results depend on the processing

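No Krtap probe was called at an adjusted p under 0.05 in any of the alternatives, and 24 probes counted as detected except when all 14 arrays were required (19). The number at an unadjusted p under 0.05, 5 of 24 as reported, was 10 with normexp background correction (2.39% of all probes), 11 with array weights (12.8%, against 3.38% as reported), 10 with the slide block (3.12%), 2 in slide 3 alone (2.69%) and 2 of 15 with 1 probe a gene (3.42%). It was 10 in slide 4 alone (1.54%), where the exposed side is 1 array. It ran from 0 to 10 with arrays left out one at a time. The median difference was 2.13 within slide 4, from that 1 array, and ran from 0.27 to 0.80 with arrays left out. With array weights 14 of 24 probes were higher in exposed skin, 11 of 11 in the Krtap10 cluster and 0 of 9 in the Krtap7-to-Krtap19 cluster. The Krtap10, Krtap5-8 and Krtap1-5 differences changed sign in none of the alternatives run, arrays left out included. Others changed sign, all with intervals that include 0 in the reported fit. With slide as a block, Krtap19-5 was 1.00, Krtap31-1 (A_64_P059302) 0.67, Krtap16-5 1.13 (A_64_P071357) and 1.01 (A_64_P071362), and Krtap15-1 1.39. Within slide 4 the same probes were 2.50, 3.45, 2.16, 1.73 and 2.31. Within slide 3, Krtap19-5 was 0.25, Krtap16-5 0.62 and 0.66, and Krtap15-1 0.93. With normexp, Krtap19-5 was 0.0027. With array weights, Krtap13-2 was -0.43 and -0.13, Krtap14 -0.71, Krtap16-5 (A_64_P071367) -0.29 and Krtap7-1 -0.28. With arrays left out, the ranges were -0.056 to 1.46 for Krtap13-2 (A_44_P665685), -0.84 to 0.79 for Krtap14, -0.90 to 0.72 for Krtap15-1, -0.94 to 0.49, -0.59 to 0.52 and -0.42 to 0.46 for the 3 Krtap16-5 probes, -0.71 to 0.58 for Krtap19-5, -1.58 to 0.61 and -0.10 to 1.05 for the Krtap31-1 probes, and -0.42 to 0.74 for Krtap7-1. With slide as a block or within a slide, arrays of slides 1 and 2, which hold 1 group each, do not enter the difference. The cause of the other changes was not tested, nor why those arrays differ. No paired analysis was possible because the replicate numbers only name the animals in accession order and the labels give none. Probes dim on an array have values near background there, which limits how far their lowest values can be read.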

Other observations

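Genes most like each cluster were sought after the cluster patterns were seen, over the same 14 arrays and 11247 genes, so the values are descriptions. For the Krtap10 cluster they were Relt (r = 0.96), P2ry4 (0.92), Hapln1 (0.92), Nfatc2ip (0.91) and Kcnj11 (0.91). Relt is a receptor of the TNF receptor family, Hapln1 links hyaluronan to proteoglycans and Kcnj11 is a potassium channel subunit, well above background on only 6 arrays. For the Krtap7-to-Krtap19 cluster they were Gprc5d (r = 0.96), Pspn (0.96), Cds2 (0.93), Acy3 (0.90) and Psors1c2 (0.90). Gprc5d is an orphan receptor known from the hair follicle, and Pspn is a neurotrophic ligand of the GDNF family. Gprc5d ran from -3.58 to 1.35 log2 units over the 14 animals and Pspn from -3.56 to 1.52.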
